A study of Saccharomyces cerevisiae with 51 samples.

Results

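The samples described here are 4 of 51 in the series: the libraries labelled OX late (A and B) and OX mid (A and B) of 1 budding yeast culture that lacks ARP5. The strain is CEN.PK with ARP5 replaced by the KAN marker (arp5∆), and the wild-type culture used beside it is CEN.PK. Both were grown in continuous culture, in which yeast cycles together through metabolic phases labelled RC (reductive charging), OX (oxidative) and RB (reductive building). RNA-seq was made at 6 phases in each of the 2 genotypes, with 2 libraries per phase, 24 in all. Libraries A and B are technical replicates, with RNA prepared separately from 1 culture, so every p-value below measures technical spread and not the spread between cultures, and each genotype rests on 1 culture. The comparison runs across all 6510 genes of 6840 that had a mean of at least 1 FPKM over the 24 libraries (FPKM are read counts scaled by gene length and library). Just inside that limit was YAR071W, with a mean of 1.00 FPKM, and just outside YGR164W, with 0.994. The phase labels of arp5∆ do not line up with those of wild type by their transcripts, so OX mid and OX late are used below as names of samples in the arp5∆ culture.

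Arp5 is a subunit of INO80, a chromatin remodelling complex that slides and edits nucleosomes. In the yeast metabolic cycle, growth genes such as those for ribosomes are known to peak in a burst of respiration. Genes for the use of ethanol, acetate and fatty acids, for peroxisomes and for stress survival are known to peak when the cells are quiescent-like and respire less. Several of the gene groups below have well known switches: glucose repression, through Mig1 and related factors, keeps genes for other carbon sources off, and nitrogen catabolite repression keeps genes for poor nitrogen sources off while a rich one such as ammonium or glutamine is at hand. Because the cultures are measured in bulk, fewer cells of a type and less RNA per cell cannot be told apart.

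The steps between low FPKM values gave the depth of each library: 6.40 and 6.80 M reads on genes in OX late A and B, and 7.38 and 7.03 M in OX mid A and B. The 24 libraries ran from 5.03 to 9.70 M. ARP5 (YNL059C, chromosome XIV, 512668 to 514935) had 0 reads in all 4 libraries, as the genotype label says. Libraries A and B correlated with r = 0.990 across genes at OX late and 0.992 at OX mid, and 6 and 8 genes with at least 10 FPKM lay 2-fold or more apart between them. Coordinates here and below are those of RefSeq assembly R64. The FPKM of a library summed to 1.21 and 1.18 M at OX late and to 1.12 and 1.10 M at OX mid. The a-type mating genes ranged widely. MFA1, a pheromone gene, had 7228 and 6624 FPKM at OX late and 8746 and 9518 at OX mid. STE6, the lowest of them, had 25.4 and 25.4 at OX late and 33.6 and 33.0 at OX mid. The α-type receptor gene STE3 had 19.0 and 22.9 FPKM at OX late and 21.9 and 22.2 at OX mid. The α-type pheromone gene MF(ALPHA)1 had 177 and 169 FPKM at OX late and 272 and 281 at OX mid. These values were above those of the a-type genes STE6, BAR1, STE2 and AGA1 in the same libraries, and below those of AGA2, MFA2 and MFA1. The other α-type genes were low at OX late, with 24.1 and 23.9 FPKM for SAG1, 20.2 and 20.6 for MF(ALPHA)2 and 19.5 and 19.1 for AFB1.

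Between OX mid and OX late the transcriptome of the arp5∆ culture changed past the thresholds in few genes. A gene is called here when its limma test on log2(FPKM + 1), adjusted over all genes by Benjamini-Hochberg, gave p below 0.05 and when it also changed by 1 or more on the log2 scale. This held for 87 of 6510 genes (1.34%). Of these, 57 were higher at OX late (0.876%) and 30 lower (0.461%). The genes called higher included 8 of 41 genes for peroxisomes and fatty acid breakdown, 10 of 42 stress genes, 3 of 13 genes for ethanol and acetate use and the maltose genes MAL11, MAL12, MAL31 and MAL32. The genes called lower included the ammonium transporter gene MEP2, the allantoate transporter gene DAL5, GDH1, which makes glutamate from ammonium, IDH1 and IDH2 of the TCA cycle, and 2 of 64 genes of G1/S and DNA replication, RNR1 and RAD53. The median log2 change over all 6510 genes was -0.0025, with quartiles at -0.20 and 0.17. On the adjusted p alone 2260 genes passed (34.7%), 1080 higher (16.6%) and 1180 lower (18.1%), and in 4327 genes (66.5%) both OX late libraries lay on the same side of both OX mid libraries.

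The 57 genes called higher took 8.23% and 8.09% of all FPKM at OX late A and B, and 3.63% and 3.57% at OX mid A and B. The most abundant was TIP1, which encodes a cell wall mannoprotein, with 18893 and 17776 FPKM at OX late against 8736 and 8383 at OX mid. The 30 genes called lower took 0.184% in each of the OX late libraries and 0.546% and 0.556% of the FPKM at OX mid. By gene type, 50 of the genes called higher and 20 of those called lower are protein-coding, and 6 and 10 have no RefSeq entry, among them transfer RNA genes. Of the genes called higher 4, and of those called lower 14, had means under 10 FPKM in both phases, and with a filter at 10 FPKM or a pseudocount of 5 FPKM the lower calls numbered 16 and 15. tK(UUU)P, the largest fall called, was listed at 0 in both OX late libraries and at 5.32 and 9.15 FPKM at OX mid, values of very few reads, and the transfer RNA genes are counted and not described further.

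**Figure D1:**
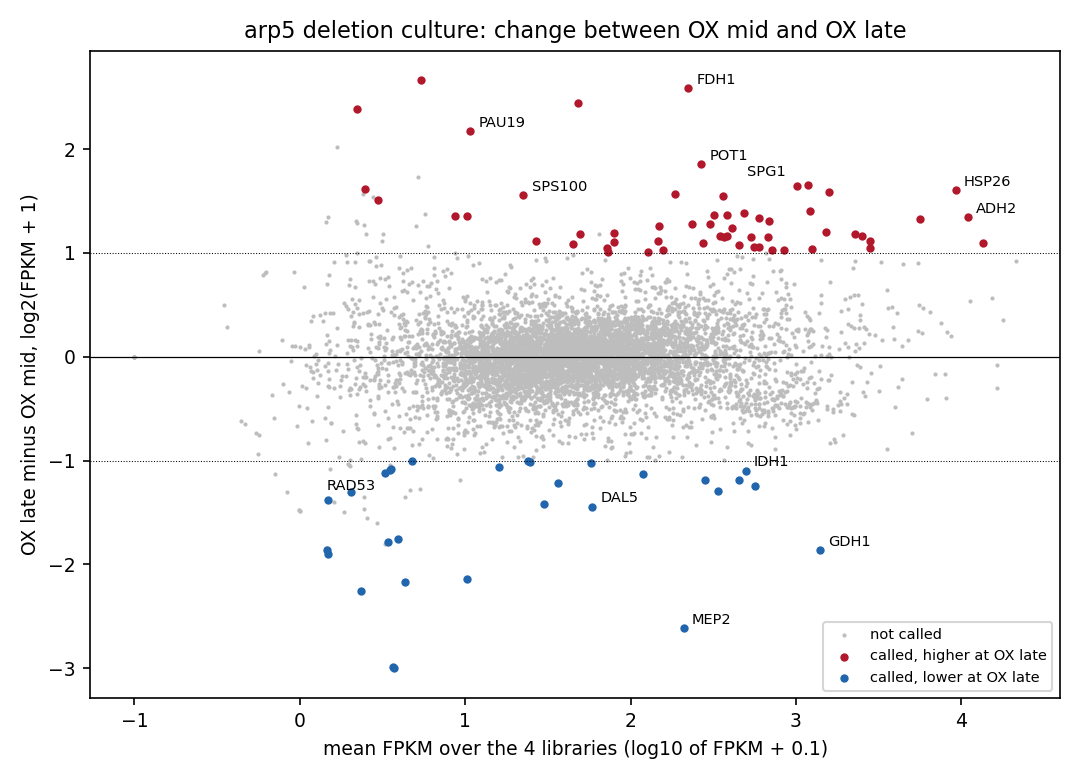
Each point is 1 of 6510 genes in the arp5∆ culture: the x axis is its mean FPKM over the 4 libraries on a log10 scale (of FPKM + 0.1), the y axis its OX late minus OX mid change in log2(FPKM + 1), and dotted lines mark a change of 1. Coloured points are the 57 genes called higher and the 30 called lower, with names on some of the largest changes; the uncalled genes lie around 0.

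Peroxisomes hold the yeast enzymes that shorten fatty acids, and these were the most numerous metabolic group to rise. Of the 41 measured genes of the peroxisome and fatty acid oxidation list, 8 were called higher and 0 lower, 31 were higher and 1 lower on the adjusted p alone, and the list's median log2 change was 0.39. POT1 (YIL160C, chromosome IX, 40191 to 41444) encodes the thiolase that takes the last step of each round of shortening. It had 432 and 401.2 FPKM at OX late against 115 and 114 at OX mid. Both OX late libraries lay well above both OX mid libraries, with a log2 change of 1.85 ± 0.09 (SE, 2 libraries a group, adjusted p = 1.60e-10).

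CTA1, the peroxisomal catalase gene, had 1807 and 1743 FPKM at OX late against 688 and 649 at OX mid (log2 change 1.41 ± 0.08). ECI1, an isomerase gene for unsaturated fatty acids, had 960.2 and 1002 FPKM at OX late against 386 and 407 at OX mid (1.30 ± 0.06). Both were higher in each OX late library than in either OX mid library. The other 5 called members were IDP3, which encodes the peroxisomal isocitrate dehydrogenase (1.16), SPS19, a dienoyl-CoA reductase gene (1.16), CAT2, which encodes the carnitine acetyltransferase that carries acetyl groups to mitochondria (1.15), FOX2, the multifunctional enzyme of the middle steps (1.04), and DCI1, an isomerase-like gene (1.00). The largest limma adjusted p among the 8 was 3.36e-07, for IDP3. SPS19 overlaps the open reading frame YNL203C, which was called with it (1.09), and reads of the pair cannot be told apart without strand. FAT3, a fatty acid uptake gene that is not on the list, had 467 and 449.6 FPKM at OX late against 173 and 181 at OX mid (1.37 ± 0.08, adjusted p = 5.39e-10). The peroxin gene PEX21 had a change of -0.38, the lowest of the list.

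Ethanol and acetate are burned after conversion to acetyl-CoA. On the acetate and ethanol list 3 of 13 measured genes were called higher and 0 lower, 7 were higher and 5 lower on the adjusted p alone, and the median log2 change was 0.24. ADH2, the alcohol dehydrogenase that consumes ethanol (YMR303C, chromosome XIII, 873291 to 874337), had 15957 and 15448 FPKM at OX late against 6299 and 6038 at OX mid. The groups lay far apart, with a log2 change of 1.35 ± 0.04 (limma adjusted p = 6.61e-13). ADH2 has close relatives such as ADH1, which had a change of -0.46, and reads may be shared between them.

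ALD3, a cytosolic aldehyde dehydrogenase gene, had 567 and 532 FPKM at OX late against 216 and 209 at OX mid (log2 change 1.36 ± 0.06). ADY2, the acetate transporter gene, had 3854 and 3789.6 FPKM at OX late against 1782 and 1751 at OX mid (1.11 ± 0.08). Neither showed overlap between the phases. ACS1, which makes acetyl-CoA from acetate, had a change of 0.89, under the 2-fold minimum, and ALD6, the main cytosolic acetaldehyde dehydrogenase gene, one of -0.82. Under quantile normalization ADH2 and ADY2 had changes of 0.83 and 0.85 and lost their calls, and the list's median was 0.06.

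Genes that build sugars from acetyl-CoA moved in part. On the list of the glyoxylate cycle and gluconeogenesis 3 of 13 measured genes were called higher and 0 lower, 9 were higher and 2 lower on the adjusted p alone, and the median was 0.23. MDH2, which encodes cytosolic malate dehydrogenase, had 753 and 732 FPKM at OX late against 332 and 333 at OX mid (log2 change 1.16 ± 0.05). ICL1, the isocitrate lyase gene (YER065C, chromosome V, 285241 to 286914), had 824 and 784 FPKM at OX late against 386 and 386 at OX mid (1.06 ± 0.06, adjusted p = 3.96e-10). PCK1, the first committed gene of gluconeogenesis, had 98.8 and 97.3 FPKM at OX late against 50.4 and 46.1 at OX mid (1.01 ± 0.08).

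None of the 3 overlapped between phases, though PCK1 sits at the 2-fold minimum and was no longer called with OX mid library B left out (0.95) or OX late library A left out (0.999). MLS1, the malate synthase that takes the step after ICL1, had 320 and 305 FPKM at OX late against 331 and 321 at OX mid, a change of -0.06 (adjusted p = 0.376). CIT2 and ACO1, a citrate synthase and the aconitase gene, had changes of -0.46 and -0.52.

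Stress genes formed the largest called group. On the stress and heat shock list 10 of 42 measured genes were called higher and 0 lower, 40 were higher and 1 lower on the adjusted p alone, and the median change of 0.67 was the highest of the 30 lists. HSP26 encodes a small heat shock protein that holds unfolded proteins (YBR072W, chromosome II, 382030 to 382674). It had 14286 and 13498 FPKM at OX late against 4703 and 4443 at OX mid. The groups did not overlap, and the log2 change was 1.60 ± 0.04 (limma adjusted p = 1.54e-13).

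SPG1, a gene for survival in stationary phase, had 1564 and 1515 FPKM at OX late against 508 and 478 at OX mid (log2 change 1.64 ± 0.10). SPG4, another such gene, had 8289 and 7719 FPKM at OX late against 3282 and 3090.5 at OX mid (1.33 ± 0.07). Neither overlapped between phases. The others called were CTT1, the cytosolic catalase gene (1.24), SIP18, a desiccation gene (1.18), SSA3, SSE2, HSP82 and HSP42, which are chaperone genes (1.18, 1.12, 1.08 and 1.02), and YGP1, a wall protein gene (1.03). The largest adjusted p among the 10 was 4.78e-08, for CTT1. PHM7 had the lowest change of the list, -0.34. Under quantile normalization SPG4 had 0.97 and lost its call.

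Maltose genes rose at both of the neighbouring transporter and maltase pairs measured. MAL11, an α-glucoside transporter gene (YGR289C, chromosome VII, 1073963 to 1075813), had 2410 and 2357 FPKM at OX late against 819 and 767 at OX mid (log2 change 1.59 ± 0.05). MAL12, its neighbour and a maltase gene (1076599 to 1078353), had 882 and 830.3 FPKM at OX late against 343 and 335 at OX mid (1.33 ± 0.06). On chromosome II, MAL31, a maltose transporter gene (802631 to 804475), had 696 and 703 FPKM at OX late against 268 and 266 at OX mid (1.39 ± 0.04). All 3 differed without overlap. MAL32, a maltase gene beside MAL31 (805351 to 807105), had 554 and 532 FPKM at OX late against 191 and 179.6 at OX mid (1.55 ± 0.06). The largest adjusted p among the 4 was 2.37e-11. MAL12 and MAL32 are near-identical, so their reads may be split between them, and YGR290W overlaps MAL11 and was called with it (1.66). The activator genes beside them, MAL13 and MAL33, had changes of -0.04 and -0.08, with adjusted p of 0.826 and 0.53.

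The largest rise of a gene with a standard name was that of FDH1, a formate dehydrogenase gene (YOR388C, chromosome XV, 1071793 to 1072923). It had 395 and 372 FPKM at OX late against 69.8 and 56.7 at OX mid, a log2 change of 2.59 ± 0.14 (limma adjusted p = 2.33e-10). Its pseudogene copy YPL276W, which may share reads with it, had 91.4 and 72.2 FPKM at OX late against 16.8 and 11.9 at OX mid. Both OX late libraries stood above both OX mid libraries in the gene and in the copy. PAU19, of the seripauperin family whose members share sequence, had 16.1 and 19.6 FPKM at OX late against 4.49 and 2.14 at OX mid (2.18 ± 0.46), values of 37 and 49 reads against 13 and 6. SPS100, a spore wall gene and the called member of the 28 meiosis and sporulation genes, had 33.9 and 33.9 FPKM at OX late against 10.9 and 10.8 at OX mid (1.56 ± 0.10). That list had 1 called higher and 0 lower, and a median of 0.27. DPA10 had 271 and 286 FPKM at OX late against 92.2 and 94.2 at OX mid (1.57 ± 0.09).

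**Figure D2:**
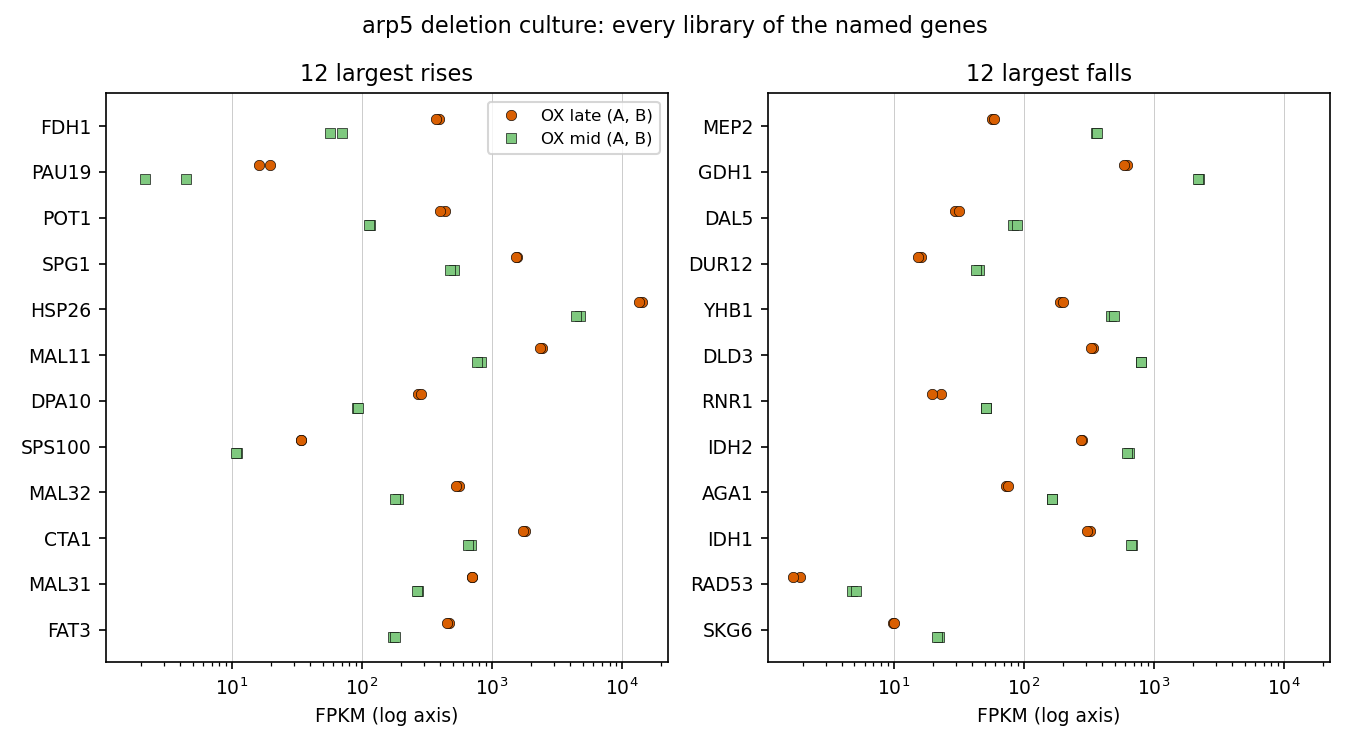
FPKM on a log axis for the 12 largest rises (left) and the 12 largest falls (right) among called genes with a standard name in the arp5∆ culture. Circles are the libraries A and B of OX late and squares those of OX mid; in each of the 24 genes the circles and squares do not overlap.

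The largest fall of a gene with a standard name was that of MEP2. This high-affinity ammonium transporter gene (YNL142W, chromosome XIV, 357453 to 358952) had 56.7 and 59.5 FPKM at OX late against 357 and 365 at OX mid. Both OX late libraries lay far below both OX mid libraries, with a log2 change of -2.61 ± 0.05 (limma adjusted p = 2.55e-15). GDH1, which makes glutamate from ammonium (YOR375C, chromosome XV, 1041678 to 1043042), had 622 and 584 FPKM at OX late against 2207 and 2180.2 at OX mid (-1.86 ± 0.05, adjusted p = 5.87e-14). GDH1 was the called member of the 65 measured genes of amino acid synthesis, where 0 were called higher and 1 lower, 6 were higher and 35 lower on the adjusted p alone, and the median was -0.21.

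Of the 30 measured genes under nitrogen catabolite repression 0 were called higher and 4 lower, 2 were higher and 23 lower on the adjusted p alone, and the median was -0.44. DAL5, the allantoate transporter gene, had 29.8 and 32.0 FPKM at OX late against 83.0 and 88.4 at OX mid (-1.44 ± 0.10). DUR12, the urea amidolyase gene, had 16.3 and 15.5 FPKM at OX late against 45.2 and 42.8 at OX mid (-1.42 ± 0.06). Neither overlapped between the phases. DAL7, an allantoin pathway malate synthase gene, changed by -1.003. Below the 2-fold minimum lay DAL3 and the urea transporter gene DUR3 (-0.97 and -0.96), GAP1, the general amino acid permease gene (-0.89), PUT1, of proline breakdown (-0.85) and MEP1, another ammonium transporter gene (-0.76). The third transporter gene MEP3 had 72.1 and 64.4 FPKM at OX late against 67.0 and 70.0 at OX mid (-0.0067, adjusted p = 0.955). GDH2, which degrades glutamate, had 0.57, with an adjusted p of 4.27e-05.

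The TCA cycle list showed changes in both directions. Of its 19 measured genes 1 was called higher and 2 lower, 3 were higher and 11 lower on the adjusted p alone, and the median was -0.22. IDH2, a subunit gene of the NAD-dependent isocitrate dehydrogenase (YOR136W, chromosome XV, 580250 to 581359), had 279 and 277 FPKM at OX late against 638 and 626 at OX mid (-1.18 ± 0.05). IDH1, the gene of the partner subunit, had 324 and 308 FPKM at OX late against 683 and 668 at OX mid (-1.10 ± 0.05). Both subunit genes were lower in every OX late library, with adjusted p of 2.37e-11 and 1.74e-11. YOR135C overlaps IDH2 and was called with it. CIT3, a mitochondrial citrate and methylcitrate synthase gene, had 3863 and 3677 FPKM at OX late against 1823 and 1835 at OX mid (1.04 ± 0.07) and, under quantile normalization, 0.79 without a call.

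On the list for the start of DNA replication no member above 0 passed the adjusted p. Of the 64 measured G1/S and DNA replication genes 0 were called higher and 2 lower, 0 were higher and 37 lower on the adjusted p alone, 61 had a change below 0 and the median was -0.39. RNR1, which makes the building blocks of DNA, had 23.2 and 19.7 FPKM at OX late against 50.9 and 51.1 at OX mid (-1.22 ± 0.06). RAD53, a checkpoint kinase gene, had 1.91 and 1.702 FPKM at OX late against 4.78 and 5.15 at OX mid (-1.09 ± 0.15), which corresponds to 29 and 28 reads against 91 and 95. Neither overlapped, but RAD53 is low and had -0.55 with a pseudocount of 5 FPKM, no longer called. The G1 cyclin gene PCL1 and the polymerase gene POL1 had -0.93 and -0.88.

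AGA1, which anchors the agglutinin of a-type cells, had 73.0 and 76.2 FPKM at OX late against 164.0 and 164.1 at OX mid (-1.13 ± 0.07). It was the called member of the 7 a-type mating genes, all of which were lower on the adjusted p alone, with a median of -0.58. YHB1, a flavohaemoglobin gene that removes nitric oxide, had 189 and 201 FPKM at OX late against 466 and 495 at OX mid (-1.30 ± 0.05), and DLD3, a lactate and 2-hydroxyglutarate dehydrogenase gene, had 339.8 and 330.1 FPKM at OX late against 795 and 790.2 at OX mid (-1.24 ± 0.04). Both groups were apart in each case. SKG6 had -1.06 and, with a pseudocount of 5 FPKM, -0.85 without a call. The thiamine and vitamin B6 list had 0 called higher and 1 lower of 22 and a median of -0.30. Its called gene THI73, a transporter gene, had 38.9 and 36.6 FPKM at OX late against 75.3 and 80.2 at OX mid (-1.02 ± 0.06) and lost its call without OX late library B or OX mid library B (-0.98 each).

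**Figure D3:**
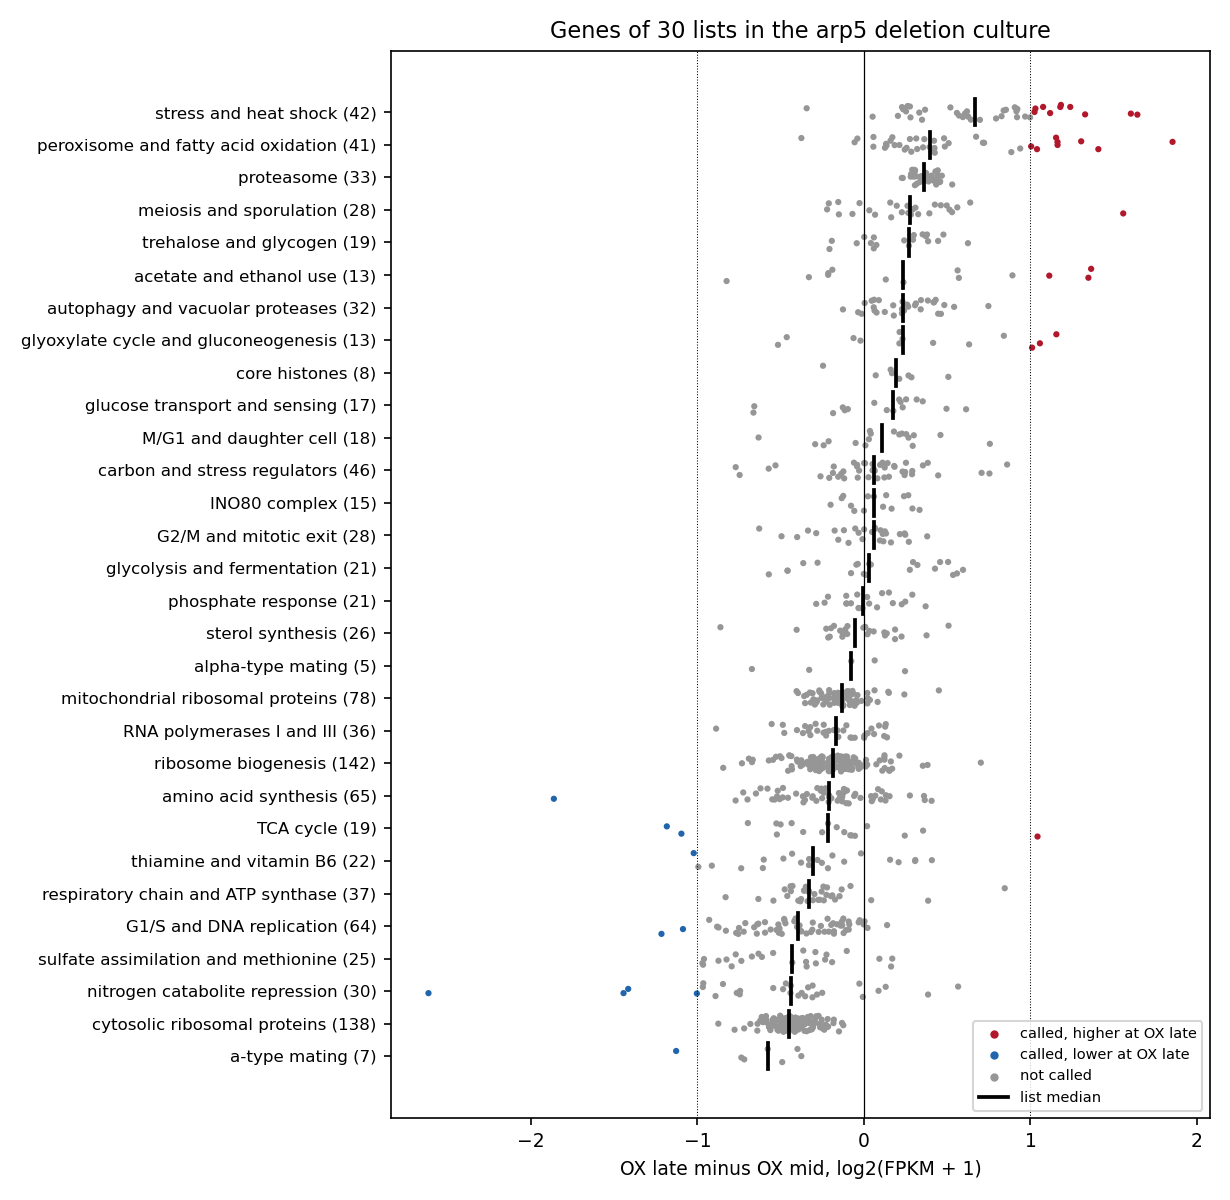
Every measured gene of 30 lists as a point at its OX late minus OX mid change in log2(FPKM + 1), with the number of genes beside the list's name and a black bar at the list median. Red and blue points were called higher and lower at OX late. The stress list has the highest median (0.67) and the a-type mating list the lowest (-0.58).

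Several large lists had medians away from 0 without a called gene. All 138 cytosolic ribosomal protein genes had a change below 0 with a median of -0.45, 133 of them lower and 0 higher on the adjusted p alone, and 0 were called. RPS28B had the largest change, with 99.0 and 94.0 FPKM at OX late against 185 and 171 at OX mid (-0.87). All 33 proteasome genes were higher on the adjusted p alone, with 0 called and a median of 0.36, and RPT6, an ATPase subunit gene, had 394 and 370.2 FPKM at OX late against 263 and 265 at OX mid (0.53). The 37 genes of the respiratory chain and ATP synthase had a median of -0.33, with 2 higher and 32 lower on the adjusted p alone and 0 called, and the largest change was that of NDE2, an external NADH dehydrogenase gene (0.85).

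The 142 ribosome biogenesis genes had a median of -0.19, 3 higher and 48 lower on the adjusted p alone, and 0 called, with RRP36 at -0.84. The 36 genes of RNA polymerases I and III had a median of -0.17 (0 and 12), with RPC82 at -0.89. The mitochondrial ribosomal protein list, with 78 of 79 genes measured, had a median of -0.13 (3 and 26), with MRP8, which is on the list by its name, at 0.45. This list also holds KGD4, a 2-oxoglutarate dehydrogenase subunit gene, and PPE1, a protein methylesterase gene. The 25 genes of sulfate assimilation and methionine synthesis had a median of -0.43 (0 and 19). MET3, the first enzyme of sulfate use, had 138 and 137 FPKM at OX late against 262 and 278 at OX mid, a change of -0.97. It passed the minimum under quantile normalization (-1.04) and without OX mid library A (-1.01). Each bracket gives the numbers higher and lower on the adjusted p alone, and 0 members of these lists were called.

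None of the genes of the remaining lists was called. The trehalose and glycogen list of 19 genes had a median of 0.27 (11 higher and 2 lower on the adjusted p alone), with PIG2 at 0.62. The 32 autophagy and vacuolar protease genes had 0.24 (16 and 1), with ATG34 at 0.75. The 8 core histone genes had 0.19 (6 and 1), but 0.04 under quantile normalization, with HTA1 at 0.51. The 17 glucose transport and sensing genes had 0.18 (4 and 3), with HXT2 at -0.66. The 18 M/G1 and daughter cell genes had 0.11 (9 and 4), with PIR3 at 0.76. The 28 G2/M genes had 0.06 (4 and 3), with CLB2 at -0.63.

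The 21 glycolysis and fermentation genes had 0.03 (8 and 5), or -0.05 under quantile normalization, with ENO1 at 0.60. The phosphate list of 21 genes had -0.0082 (2 and 2), with PHM8 at 0.37. It also holds the kinetochore gene CTF19 and the glycerol phosphatase gene GPP2. The 26 sterol genes had -0.05 (5 and 7), with ERG4 at -0.86, and the 5 α-type mating genes had -0.08 (0 and 2), with MF(ALPHA)1 at -0.67. The 15 genes of the INO80 complex, to which Arp5 belongs, had a median of 0.06 (5 and 0), and IES3 had the largest change, 0.33. INO80, the catalytic subunit gene, had 49.8 and 52.8 FPKM at OX late against 45.3 and 45.9 at OX mid (0.17, adjusted p = 0.0198).

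Of 46 regulators of carbon use and stress 0 were called, 12 were higher and 7 lower on the adjusted p alone, and the median was 0.06. SIP4, an activator of gluconeogenic genes, had 25.1 and 23.9 FPKM at OX late against 13.7 and 12.5 at OX mid (0.86), and REG2, a phosphatase subunit gene of glucose repression, had 129.7 and 119.5 FPKM at OX late against 70.2 and 76.7 at OX mid (0.75). MIG1, the glucose repressor gene, had 78.5 and 74.7 FPKM at OX late against 126 and 132 at OX mid (-0.75), and the repressor genes NRG2 and NRG1 had -0.57 and -0.53. HAP4, the activator gene of respiration, had 133.4 and 132.9 FPKM at OX late against 233 and 223 at OX mid (-0.77). All of these had non-overlapping libraries and were under the 2-fold minimum. ADR1 and CAT8, activators of ethanol and gluconeogenic genes, had changes of -0.21 and -0.19, with adjusted p of 0.081 and 0.159, and CRF1, a repressor of ribosomal protein genes, had 0.71.

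The 2 phases were placed in the cycle by their neighbours. Of the 57 genes called higher, 34 (59.6%) had their highest arp5∆ mean at OX late and 19 at RB start, and 27 and 24 had their lowest mean at RC mid and RC start. Of the 30 called lower, 24 (80%) had their lowest mean at OX late, and the highest fell at RC start for 13, OX mid for 11 and RC mid for 6. Over all genes tested 21.7% peaked and 22.2% had their lowest mean at OX late. The shares over all genes at the other phases are not given here, so the counts at RB start, RC mid, RC start and OX mid have no background. Since a call also raises the chance of an extreme at OX late, all of these counts are a description.

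ADH2 in arp5∆ had 1552 and 1572 FPKM at RC start, 191 and 192 at RC mid, 6299 and 6038 at OX mid, 15957 and 15448 at OX late, 12674 and 11949.9 at RB start and 6997 and 7194 at RB late. It was highest at OX late, with no overlap with RB start. HSP26 was higher still at RB start, with 24052 and 22208 FPKM, and 11674 and 11828 at RB late. MEP2 had 1497 and 1438 FPKM at RC start, 173 and 175 at RC mid, 357 and 365 at OX mid, 56.7 and 59.5 at OX late, 95.7 and 89.8 at RB start and 581 and 582 at RB late, so its OX late libraries were the lowest of 12. The number of genes called was 882 from RC start to RC mid, 303 from RC mid to OX mid, 87 from OX mid to OX late, 33 from OX late to RB start, 153 from RB start to RB late and 668 from RB late to RC start. These steps share libraries with one another, and their counts stand side by side only.

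**Figure D4:**
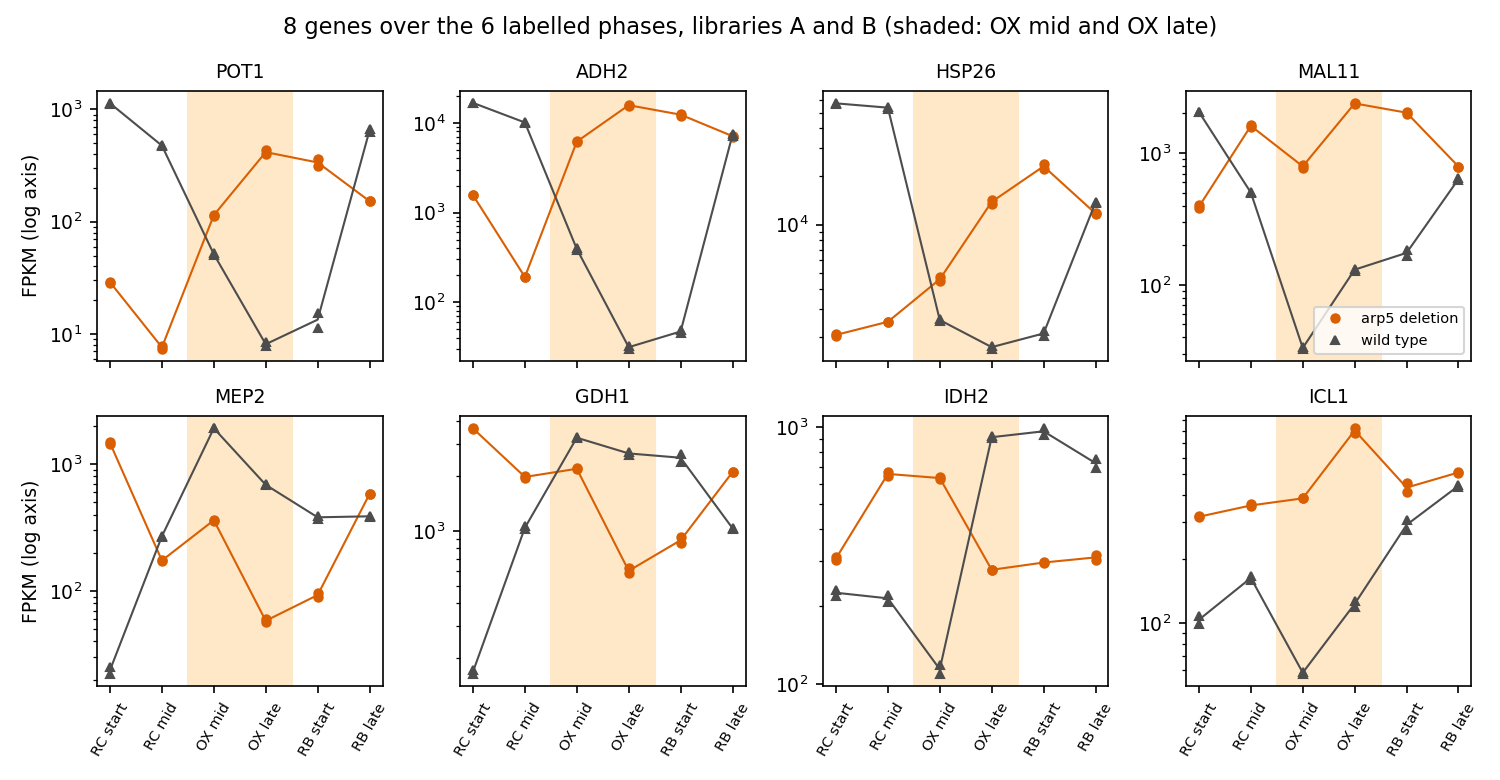
FPKM on a log axis of 8 genes over the 6 labelled phases, in arp5∆ (circles) and wild type (triangles), with libraries A and B as points, a line through their mean and OX mid and OX late shaded. ADH2, POT1, MAL11 and ICL1 are highest at OX late in arp5∆, and MEP2, GDH1 and IDH2 lowest.

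The same pair of labels in wild type gave a different picture. In wild type 1762 genes (27.1%) were called between OX mid and OX late, 803 higher (12.3%) and 959 lower (14.7%) at OX late. The change differed between the genotypes in 1719 genes (26.4%), with the arp5∆ change higher in 912 (14%) and lower in 807 (12.4%), by a test of the difference of the 2 changes in the same limma fit. Across 6510 genes the changes correlated with r = 0.09, a description in which genes are not independent replicates. Of the 57 genes called higher in arp5∆, 20 were higher in wild type too, and 21 were called lower there. Their wild-type median was -0.44. Of the 30 called lower, 15 were lower in wild type. Here and below, such direction counts are a description. The share of all genes that moved each way in a wild-type step, called or not, was not counted.

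FDH1 differed most, with 395 and 372 FPKM at OX late against 69.8 and 56.7 at OX mid in arp5∆, and 6.03 and 8.79 at OX late against 143 and 141 at OX mid in wild type (difference of the log2 changes 6.70 ± 0.19, adjusted p = 1.13e-14). IDH2 differed in the opposite sense, with 279 and 277 FPKM at OX late against 638 and 626 at OX mid in arp5∆, and 918 and 906 at OX late against 109 and 119 at OX mid in wild type (-4.17 ± 0.07, adjusted p = 3.99e-17). Both genes thus moved in opposite directions between these labels in the 2 cultures. CIT1, a mitochondrial citrate synthase gene, had 1516 and 1508 FPKM at OX late against 2183 and 2161 at OX mid in arp5∆, and 1277 and 1261 at OX late against 148 and 152 at OX mid in wild type. HXK1, the hexokinase gene used on poor sugars, had 8464 and 8154 FPKM at OX late against 6937 and 6373 at OX mid in arp5∆, and 1643 and 1688 at OX late against 111 and 108 at OX mid in wild type.

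By transcript profile, earlier results of these data had placed arp5∆ OX mid and OX late nearest to wild-type RB late and RC start, so the change was also set against that wild-type step. Of the wild-type steps it correlated there with r = 0.42 and, for RB start to RB late, which was added after seeing the data, with r = 0.51, both over 6510 genes and the highest of the 6 wild-type steps. In wild type 295 genes (4.53%) were called at RC start against RB late, 138 higher (2.12%) and 157 lower (2.41%). Of the 57 genes called higher in arp5∆ 47 had a higher value in wild-type RC start than RB late, 26 of them called and 2 called the other way, and the wild-type median was 0.91 beside 1.24 in arp5∆. Of the 30 called lower, 23 were lower in wild type, 12 of them called and 1 called the other way. The test of the difference found 175 genes (2.69%), 99 higher (1.52%) and 76 lower (1.17%) in arp5∆. The stress list had a median of 0.67 in arp5∆ and 0.74 in wild type, and 3 of 42 genes differed, among them SSA3, with 1.18 in arp5∆ and 2.98 in wild type.

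On the list of the glyoxylate cycle and gluconeogenesis 4 of 13 genes differed between the cultures at this step. ICL1 had 824 and 784 FPKM at OX late against 386 and 386 at OX mid in arp5∆, and 108 and 99.7 at RC start against 447 and 437 at RB late in wild type. It rose in arp5∆ and fell in wild type, a difference of 3.14 ± 0.08 (adjusted p = 7.97e-14), the largest of a named gene. PCK1 also had opposite signs, although its wild-type change of -0.95 was under the minimum, with 98.8 and 97.3 FPKM at OX late against 50.4 and 46.1 at OX mid in arp5∆, and 19.5 and 23.5 at RC start against 41.4 and 43.3 at RB late in wild type (difference 1.96). MLS1, which had -0.06 in arp5∆, had 57.1 and 60.4 FPKM at RC start against 366 and 378 at RB late in wild type (difference 2.58). The other was CIT2 (1.39), and in the peroxisome list 7 of 41 differed.

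Methionine and sulfur genes were lower by more in wild type at this step than in arp5∆. The median change of the 25 genes was -0.43 in arp5∆ and -1.88 in wild type, and 17 of the 25 differed. MET6, the methionine synthase gene, had 628 and 613 FPKM at OX late against 779 and 741 at OX mid in arp5∆, and 89.3 and 84.0 at RC start against 718 and 697 at RB late in wild type (difference 2.72 ± 0.07, adjusted p = 7.97e-14). MUP1, a methionine transporter gene, had -0.22 in arp5∆ and -2.48 in wild type, ADE17, of purine synthesis, -0.03 and -2.33, and SER3, of serine synthesis, 0.36 and -1.87. In the other direction, MEP3 had -0.0067 in arp5∆ and 1.63 in wild type, UTR2, a cell wall gene, -0.72 and 0.84, GRE1, a stress gene, 0.79 and 2.35, and CDC6, which loads the replication helicase, -0.52 and 1.37. CDC6 had 2.43 and 2.43 FPKM at OX late against 4.45 and 3.47 at OX mid in arp5∆, near the low end, and HLR1 (-1.01 and 0.57) was as low.

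**Figure D5:**
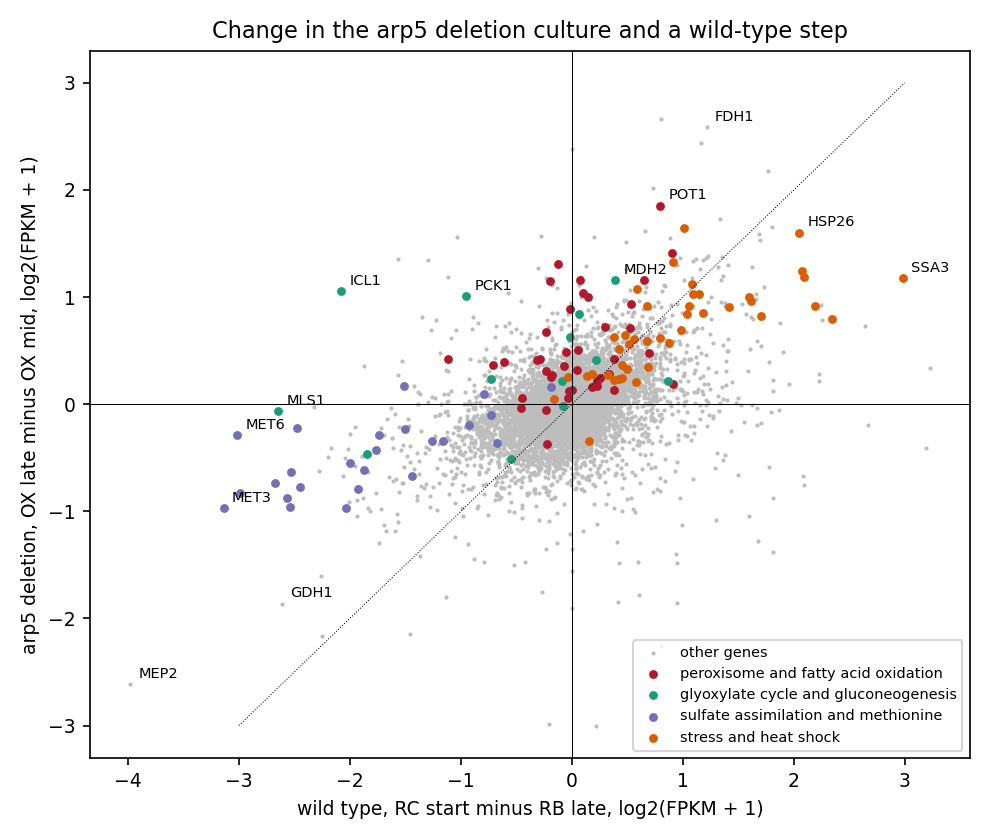
Each point is 1 of 6510 genes, with the wild-type change (RC start minus RB late) on the x axis and the arp5∆ change (OX late minus OX mid) on the y axis, both in log2(FPKM + 1). Coloured points are 4 gene lists and the dotted line marks equal changes; sulfur and methionine genes lie at the left of that line, with lower values in wild type, and ICL1 and PCK1 are above 0 in arp5∆ and below 0 in wild type.

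Against the wild-type step from RB start to RB late, in which 1140 genes (17.5%) were called, 586 higher (9%) and 554 lower (8.51%), 776 genes (11.9%) differed, 346 higher (5.31%) and 430 lower (6.61%) in arp5∆. Of the 57 genes called higher in arp5∆ 53 were higher there too, 47 of them called and 0 called the other way, with a wild-type median of 2.88. The wild-type changes of these genes were large: POT1 had 1.85 in arp5∆ and 5.51 in wild type, and ADH2 1.35 and 7.25. Of the 30 called lower in arp5∆ 22 were lower in wild type, 8 of them called and 1 called the other way.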

How the data were processed

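The authors deposited gene expression as FPKM in 1 table for the 24 cycle RNA libraries (total RNA, TruSeq mRNA kit, per the labels' protocols). Bowtie2, DESeq2 and the build sacCer3 are named without versions, per the submitters' processing notes; strand use and the counting of reads are not given in the sources used here. Columns were matched to samples by title. The 30 columns of the ATAC and rapamycin tables were not used.

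For the 6510 genes that averaged 1 FPKM or more, log2(FPKM + 1) was fitted by limma (3.58.1, in R 4.3.3), with 12 genotype-by-phase groups sharing 1 spread moderated by an intensity trend. Changes on this scale understate those of low genes. Calls required p below 0.05 after Benjamini-Hochberg adjustment over all genes, together with a change of 1 or more (log2). Differences of changes were contrasts of the same fit. Reads were recovered from the steps of low FPKM values (95.2% to 100% whole within 0.1 of a read). They gave the depth and the read numbers of single genes and did not enter the limma tests. Standard names are from RefSeq R64, which named 5900 of 6840 genes.

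The comparison, the 30 gene lists and the named genes were chosen with earlier results of these data known. Named are ARP5, the 12 largest rises and the 12 largest falls with a standard name, up to 3 called members per list and direction (or the largest change), and 6 differences per direction; other members are given as values chosen after they were seen. On simulated data for the OX late against OX mid comparison (6510 genes, 50 changed per fold), 0% of 1.5-fold, 50% of 2-fold, 98% of 3-fold and 100% of 4-fold changes were called, with 1 false call. The changed genes were drawn only from those averaging above about 10 FPKM, with normally distributed noise. Recovery of changes in lower genes was therefore not tested. Alternatives were other pseudocounts, filters, scalings, sets of libraries, fold minimums and each library left out. Promoter motifs and sequences were not analysed here.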

Additional observations from a re-analysis of the deposited data

Results flagged for a closer look

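The change from OX mid to OX late differed between arp5∆ and wild type, by a test of the difference, in 1719 of 6510 genes. The difference of the log2 changes, arp5∆ minus wild type, was highest among genes with a standard name for FDH1 (6.70), HXT4, a hexose transporter gene (5.91), AQR1, a transporter gene (5.64), DBP2, an RNA helicase gene (5.40), GRE1 (5.12) and ANS1 (5.03). It was lowest for IDH2 (-4.17), AIM17 (-3.72), COA4, a cytochrome oxidase assembly gene (-3.64), HXK1 (-3.60), CIT1 (-3.59) and IDH1 (-3.56). Most of each difference lay in the wild-type step for HXT4, which changed by -0.11 in arp5∆ and by -6.02 in wild type, and for HXK1, which changed by 0.32 and 3.92. FDH1 changed by 2.59 in arp5∆ and by -4.11 in wild type. What a shift of the phases between the cultures adds to these differences was not tested.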

How the results depend on the processing

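The 87 calls became 2260 with no fold minimum (1080 higher, 1180 lower) and 11 with a log2 change of at least 2 (5 higher, 6 lower). The 30 genes called lower became 15 with a pseudocount of 5 FPKM and 16 with a filter at 10 FPKM. The share of calls that were higher was then 75.8% and 76.1%, against 65.5%. At the main fold minimum the calls ran from 62 with a pseudocount of 5 FPKM to 104 under quantile normalization. The lower calls reached 40 with a pseudocount of 0.1 FPKM. With each of the 4 libraries left out in turn the calls numbered 87 to 90, with 53 to 59 higher and 28 to 36 lower. The differences from wild type numbered 1700 to 1730 for the same labels, 173 to 196 for RB late to RC start and 739 to 786 for RB start to RB late. With the letter as a replicate block there were 89 calls (58 higher, 31 lower), 1718 differences for the same labels and 181 for RB late to RC start; the third was not run. The letters deviated together only weakly (r = 0.17, 1 pair of groups of 2) and are not shown to pair the libraries. Of the single genes, PAU19 lost its call with a pseudocount of 0.1 FPKM, and the differences of CDC6 (-0.99) and HLR1 (-0.91) fell under the minimum with one of 5 FPKM. List medians also depended on the processing: recomputed under the alternatives, 95 were classed as moved and 385 as the same. No called change or called difference of a named gene reversed its sign under the alternatives run. Uncalled changes near 0 can reverse when a library is left out. MEP3 (-0.0067) is such a gene, with 72.1 and 64.4 FPKM at OX late on either side of 67.0 and 70.0 at OX mid. A count of few reads limits RAD53, PAU19, CDC6, HLR1 and the transfer RNA genes.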
